A study of Homo sapiens with 4 samples.

Results

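The cytosolic large ribosomal subunit is built from ribosomal RNA and a fixed set of proteins, and the mRNAs of 45 of these proteins were followed here among the RNAs that co-purified with the kinesin KIF5A. The 45 genes were taken by symbol from a list of large-subunit proteins, proposed with earlier results of these data known, out of 60719 genes in the count tables, and each symbol matched 1 gene. Cells of SK-N-AS, a human neuroblastoma line, had been transfected a day earlier with a plasmid for V5-tagged d27 KIF5A (2 precipitates) or V5-tagged wild-type (WT) KIF5A (2 precipitates). The labels call d27 a mutant and the series title places it among KIF5A mutations associated with amyotrophic lateral sclerosis. Each V5 tag was pulled down with antibody-coated magnetic beads, and the RNA in the eluate was depleted of ribosomal RNA and sequenced. The constructs were expressed transiently in 1 cell line on top of the cells' own KIF5A. Whether replicates were separate cultures is not given, so every p-value speaks to library-to-library spread alone, possibly technical. No input or mock library is used here, so less of an mRNA on the motor and less of it in the cells cannot be told apart.

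The large subunit joins amino acids into protein. Its catalytic centre is RNA, its proteins shape the tunnel through which the new chain leaves, and a flexible stalk of acidic P proteins recruits the elongation factors. Ribosomal protein mRNAs are among the most abundant messages of a growing cell. They begin with a C followed by an unbroken run of pyrimidines, the 5′ terminal oligopyrimidine (TOP) tract, through which their translation is coupled to mTOR signalling and the RNA-binding protein LARP1. In neurons, ribosomal protein mRNAs are also found in axons, where they can be translated locally.

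The start sites show this shared feature, which the list did not use. Promoter sequences from RefSeq (GRCh38.p14) matched 38 of the 45 by symbol, and the other 7 were RPL5, RPL7, RPL8, RPL23, RPL23A, RPL30 and RPL37. A C at the annotated first base, followed by 4 bases that were each C or T, was searched on the gene's own strand only. It stood at the start of 28 of the 38 genes (73.7%), against 1404 of all 27305 genes in the table (5.14%), 20 of 26 genes of the small subunit (76.9%) and 3 of 42 genes of the mitochondrial large subunit (7.14%). The sequences printed here hold 15 bases before the annotated start and the 15 bases from it on, and capitals mark the pyrimidine run that begins at the start; RPL13 and RPL19 have further annotated starts. The first 6 belong to the stalk and to 2 further mRNAs that were lower in d27 precipitates, and the last 4 to mRNAs whose levels were close between constructs or higher in d27.
RPLP0, chr12:120201097-120201126, minus strand: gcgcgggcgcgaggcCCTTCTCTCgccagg
RPLP1, chr15:69452803-69452832, plus strand: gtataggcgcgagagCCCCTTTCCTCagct
RPLP2, chr11:809952-809981, plus strand: ttgcgtcggcgccttCCTTTTCCTCCCTgt
RPL12, chr9:127451392-127451421, minus strand: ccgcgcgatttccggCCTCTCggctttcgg
RPL13, chr16:89560667-89560696, plus strand: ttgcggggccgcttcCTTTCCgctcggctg
RPL19, chr17:39200308-39200337, plus strand: gagcgagctctttcctttcgctgctgcggc
RPL14, chr3:40457324-40457353, plus strand: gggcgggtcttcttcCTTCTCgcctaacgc
RPL29, chr3:51995881-51995910, minus strand: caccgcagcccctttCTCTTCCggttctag
RPL26, chr17:8383179-8383208, minus strand: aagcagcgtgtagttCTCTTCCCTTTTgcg
RPL22, chr1:6199581-6199610, minus strand: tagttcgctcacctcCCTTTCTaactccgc
The last 4 are examples that have a tract; RPL6, RPL9, RPL15 and RPL17, whose levels overlapped between constructs, have none at any annotated start. In RPL19 a pyrimidine run lies across the annotated start, whose first base is not C, and so has no capitals. The 28 genes with a tract at an annotated start had a median log2 fold change, d27 over WT, of -0.76. The 10 without one at any annotated start had a median of -0.36. A tract that began within 10 bases of an annotated start stood in 35 of the 38 genes (92.1%), against 38.4% of all genes. The split into 28 and 10 thus rests on the exact annotated base, and does not separate genes with and without a tract nearby. Of the 28, 19 had both d27 libraries below both WT libraries, as did 6 of the 10, against 29.8% of all genes tested.

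Gene counts totalled between 8142869 and 18335151 per library. Reads that aligned to several places, which the counting leaves out, made up 9.10% and 17.1% of all entries in d27 replicates 1 and 2 and 23.7% and 22.8% in WT. The large-subunit genes have 719 annotated pseudogenes between them and 44 of the 45 have at least 1, so an unknown part of their reads is among those left out; what this adds to the differences below was not tested. Markers of mesenchymal-type neuroblastoma summed to 5119 and 4814 CPM (counts scaled to a common library total) in d27 and 3831 and 3410 CPM in WT. Without FOSL1 the direction turned: the other 7 summed to 3197 and 3020 CPM in d27 and 3652 and 3283 CPM in WT. FN1 had 165 and 347 CPM in d27 and 527 and 943 CPM in WT, and VIM had 1189 and 1375 CPM in d27 and 1953 and 1656 CPM in WT. These 2 alone had a log2 fold change below 0, and 6 of the 8 were above 0. The adrenergic markers summed to 734 and 598 CPM in d27 and 899 and 725 CPM in WT. Most of this was HAND2, at 560 and 437 CPM in d27 and 755 and 608 CPM in WT. Of the 6 tested, 4 had a log2 fold change below 0 and 2 above 0, among them GATA3 (119 and 104 CPM in d27, 74.3 and 59.9 CPM in WT). Of 6 markers of other cells, HBB, EPCAM and KRT5 had no counts, ALB had 1 count and PECAM1 had 3 to 14 per library. The leukocyte gene PTPRC had 101 and 81.8 CPM in d27 and 205 and 144 CPM in WT, and its part in the results was not tested. The d27 libraries were the most alike (Pearson r = 0.970 across genes), while WT replicate 1 was nearly as close to d27 replicate 2 (0.937) as to WT replicate 2 (0.944). Each library was closest to the other library of its construct, by a narrow margin for WT replicate 1.

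Large-subunit mRNAs took a smaller share of the d27 precipitates than of the WT precipitates. Together they held 0.928% and 1.08% of gene counts in d27 replicates 1 and 2 (exact binomial 95% intervals 0.923% to 0.932% and 1.07% to 1.08%), against 1.81% and 1.65% in WT (1.80% to 1.82% and 1.64% to 1.65%). The groups do not overlap. RPLP0 alone gave 25524 and 13690 counts in d27 and 25500 and 57922 counts in WT. Without RPLP0 the shares were 0.789% and 0.946% in d27 and 1.499% and 1.11% in WT, still apart. The 33 small-subunit genes held 0.463% and 0.617% in d27 and 0.782% and 0.608% in WT, so their groups overlap, although gene by gene the small subunit was much alike: 21 of 33 (63.6%) had both d27 libraries below both WT libraries and 26 (78.8%) had a log2 fold change below 0. The large-to-small ratio was 2.00 and 1.75 in d27 and 2.32 and 2.71 in WT.

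Singly, few passed the test. All 45 passed the filter on low counts, and 5 fell in d27 at an edgeR adjusted p under 0.05, none rose and 40 did not pass. Over all 14909 genes tested, 11.7% were called, 3.7% lower and 8% higher. At an unadjusted p under 0.05, 22 were lower in d27 and none higher, against 13.6% of all genes tested that were lower. The 5 were RPLP0, RPLP2, RPL19, RPL23A and RPL13. The log2 fold change was below 0 for 36 of the 45, with a median of -0.65 and a range of -1.75 to 1.02, beside a median of -0.00043 over all genes tested, of which 50% were below 0. Both d27 libraries lay below both WT libraries in 30 of the 45 (66.7%), against 29.8% of all genes tested, and above both in 1, RPL22, against 31.4%. Without d27 replicate 1 edgeR called none of the 45, beside 0.431% of all genes called lower, and the median of the 45 was -0.44. Without WT replicate 2 it called 2, beside 1.92% of all genes called lower. DESeq2 called 16 lower and none higher, beside 9.5% of the genes it tested that were lower. An offset for GC content and exon length raised the edgeR calls to 20, all lower, beside 6.72% of all genes.

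**Figure D1:**
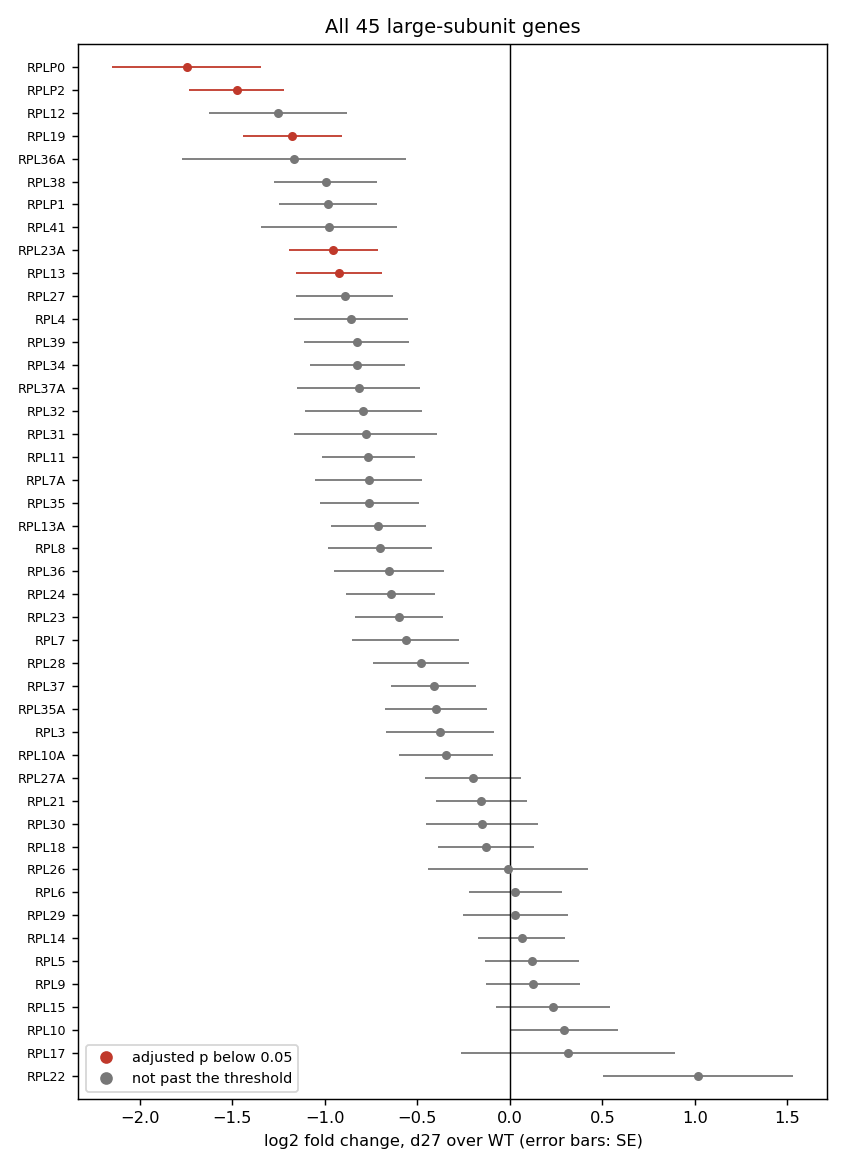
Log2 fold change of each of the 45 large-subunit genes, d27 over WT, from the fit across all genes, with standard errors as horizontal bars; red points passed an adjusted p of 0.05. The 5 red genes lie between -1.75 and -0.92, 36 genes lie left of 0, and RPL22 alone lies above 1.

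The stalk gave the largest differences of the groups by role. RPLP0 anchors the stalk to the ribosome, RPLP1 and RPLP2 are the acidic proteins that RPLP0 carries, and RPL12 sits at the base. All 4 had both d27 libraries below both WT libraries, and their median log2 fold change was -1.36. RPLP0 (ENSG00000089157.16, chromosome 12, 120196686 to 120201235, minus strand), the most abundant large-subunit mRNA per kilobase of coding sequence, had 1385 and 1269 CPM, scaled by trimmed mean of M-values (TMM), in d27 replicates 1 and 2, against 2893 and 6002 CPM in WT. WT replicate 2 stood 2.07 times above WT replicate 1, and even the lower WT value was above both d27 values. The log2 fold change was -1.75 ± 0.40 (SE, n = 2 per group, edgeR adjusted p = 0.0339). Leaving out single libraries gave -1.10 without WT replicate 2 (edgeR adjusted p = 0.0593), -1.79 when d27 replicate 1 was dropped (0.101) and -1.65 when d27 replicate 2 was (0.0530).

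RPLP2 (ENSG00000177600.9, chromosome 11, 809647 to 812880, plus strand) had 213 and 266 CPM in d27 and 674 and 658 CPM in WT. Its WT replicates were close and far above both d27 replicates, a 2.78-fold drop (log2 -1.48 ± 0.26 SE, edgeR adjusted p = 0.0169). Of the 5 that fell it kept its call under the most alternatives, losing it only without d27 replicate 1 (edgeR adjusted p = 0.0822). PIDD1, which overlaps it on the other strand, was also lower in d27 (log2 -1.92), and the counting's strand setting is not known. RPLP1 had 139 and 198 CPM in d27 and 349 and 315 CPM in WT, apart but just short of the threshold (log2 -0.98 ± 0.27, edgeR adjusted p = 0.0514). It passed in 8 of 11 alternative analyses, such as edgeR with DESeq2 size factors (adjusted p = 0.0483). RPL12 had 109 and 196 CPM in d27 and 265 and 461 CPM in WT. Both groups were wide, and its difference (log2 -1.25 ± 0.37) did not pass (edgeR adjusted p = 0.0671), though it did in 7 of the 11, such as without WT replicate 1 (0.000992).

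**Figure D2:**
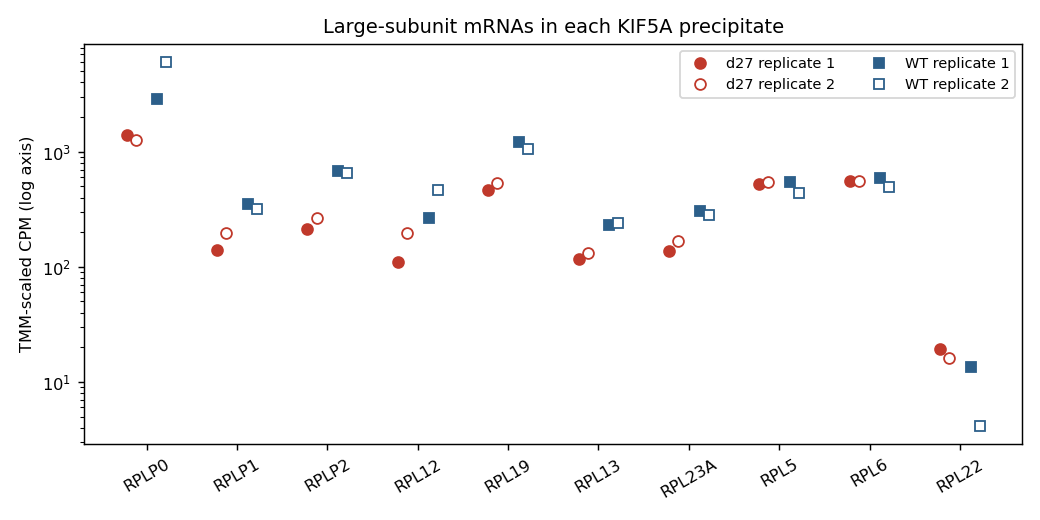
TMM-scaled CPM of 10 large-subunit mRNAs in each library on a log axis, d27 as red circles left of WT as blue squares, with replicate 1 filled and replicate 2 open. In the 4 stalk genes and in RPL19, RPL13 and RPL23A every red point is below every blue one, in RPL5 and RPL6 they mix, and in RPL22 red is above blue.

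Around the mouth of the exit tunnel, 2 of 7 mRNAs fell. RPL19, a long-tailed protein at the tunnel rim that also reaches the small subunit (ENSG00000108298.12, chromosome 17, 39200283 to 39204732, plus strand), had 462 and 537 CPM in d27 and 1205 and 1052 CPM in WT. Replicates of either construct differed little beside the gap between them (log2 -1.18 ± 0.27 SE, edgeR adjusted p = 0.0330), but the call was lost without d27 replicate 1 (0.246) and without d27 replicate 2 (0.0725). RPL23A, part of the docking site of the signal recognition particle (ENSG00000198242.14, chromosome 17, 28719393 to 28724359, plus strand), had 138 and 167 CPM in d27 and 308 and 284 CPM in WT (log2 -0.95 ± 0.24, edgeR adjusted p = 0.0422). It has 91 pseudogenes, the most of the 45. Its edgeR adjusted p was 0.0613 without WT replicate 2, and 0.287 or 0.0664 when d27 replicate 1 or 2 was dropped.

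The other 5 genes of the rim did not pass. RPL38, known in mice for a role in translating Hox mRNAs, had 124 and 192 CPM in d27 and 307 and 321 CPM in WT (log2 -0.99 ± 0.28, edgeR adjusted p = 0.0568). The groups were apart, and it passed in 7 of the 11 alternatives, such as without d27 replicate 2 (0.0200). RPL35 had 163 and 240 CPM in d27 and 338 and 343 CPM in WT, also apart (log2 -0.76 ± 0.27). RPL31 showed how far the d27 replicates could differ, at 56.0 and 132 CPM in d27 and 174 and 149 CPM in WT (log2 -0.78 ± 0.38). It passed without d27 replicate 2 (log2 -1.49, edgeR adjusted p = 0.00543). RPL26, known to bind p53 mRNA, overlapped at 8.14 and 19.0 CPM in d27 and 14.0 and 13.2 CPM in WT.

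RPL22 went the other way. This RNA-binding protein, which mice can live without, had 19.1 and 16.2 CPM in d27 and 13.4 and 4.14 CPM in WT, from 353 and 175 counts in d27 and 118 and 40 counts in WT. The d27 libraries were both higher, but the WT replicates differed so much that the log2 fold change of 1.02 ± 0.51 (SE) did not pass (edgeR adjusted p = 0.223). It passed only without WT replicate 1 (log2 2.14, edgeR adjusted p = 0.000405).

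Of 3 genes of the tunnel wall and 3 around the catalytic centre, edgeR called none (2 and 1 had an unadjusted p under 0.05, and DESeq2 called 1 and 0). RPL4, whose extended loop lines the tunnel, had 848 and 566 CPM in d27 and 1402 and 1158 CPM in WT (log2 -0.86 ± 0.31, edgeR adjusted p = 0.108). The groups were apart, with d27 replicate 1 above d27 replicate 2. RPL39, a very short tunnel protein, had 15.8 and 19.6 CPM in d27 and 33.6 and 29.1 CPM in WT (log2 -0.83 ± 0.28, edgeR adjusted p = 0.0951), again with no overlap. RPL17, the remaining gene of the tunnel wall, had few counts, and its groups overlapped (log2 0.31 ± 0.58). Near the catalytic centre, RPL8 was apart at 332 and 482 CPM in d27 and 679 and 643 CPM in WT (log2 -0.70 ± 0.28). RPL3 was barely apart, at 471 and 716 CPM in d27 and 797 and 745 CPM in WT (log2 -0.38 ± 0.29). RPL10, one of the last proteins to join the subunit, overlapped at 137 and 178 CPM in d27 and 158 and 99.7 CPM in WT (log2 0.29 ± 0.29).

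RPL5 and RPL11, which bind the 5S ribosomal RNA and restrain MDM2 when ribosome assembly fails, did not move as a pair. RPL11 had 148 and 178 CPM in d27 and 310 and 243 CPM in WT, with no overlap (log2 -0.76 ± 0.25, edgeR adjusted p = 0.0864). RPL5 had 524 and 547 CPM in d27 and 546 and 440 CPM in WT, overlapping (log2 0.12 ± 0.26, edgeR adjusted p = 0.791). Whether these log2 fold changes differ from each other was not tested.

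Outside these groups by role, 1 of 26 genes fell, a share close to the 3.7% of all genes called lower. RPL13 (ENSG00000167526.14, chromosome 16, 89560657 to 89566828, plus strand), a surface protein mutated in a human skeletal dysplasia, had 116 and 132 CPM in d27 and 229 and 242 CPM in WT. Replicates were close in both groups, and the log2 fold change of -0.92 ± 0.23 (SE) passed narrowly (edgeR adjusted p = 0.0416). It was lost without WT replicate 2 (0.0952), d27 replicate 1 (0.263) or d27 replicate 2 (0.0887). RPL27 had 198 and 251 CPM in d27 and 467 and 366 CPM in WT, and RPL34 had 56.8 and 79.4 CPM in d27 and 126 and 115 CPM in WT. Both were apart but did not pass (log2 -0.89 ± 0.26 and -0.82 ± 0.26, edgeR adjusted p = 0.0651 and 0.0747), and each passed in 4 of the 11 alternatives. RPL4, RPL11 and RPL35 each passed in 3 of them, RPL13A in 2, and RPL8 and RPL39 in 1. RPL41, the smallest ribosomal protein, had 41.1 and 91.4 CPM in d27 and 134 and 126 CPM in WT (log2 -0.98 ± 0.37), and passed in 4 of the 11 alternatives, such as without d27 replicate 2 (log2 -1.63, edgeR adjusted p = 0.00239). RPL13A, a known subunit of a translational silencing complex and an abundant host of small nucleolar RNAs, was even between replicates at 709 and 715 CPM in d27 and 1149 and 1179 CPM in WT (log2 -0.71 ± 0.26, edgeR adjusted p = 0.112). A further 10 genes had no overlap and did not pass: RPL7, RPL7A, RPL10A, RPL23, RPL24, RPL28, RPL32, RPL36, RPL37 and RPL37A, with log2 fold changes of -0.82 (RPL37A) to -0.35 (RPL10A). Of these, RPL7A, RPL24, RPL32 and RPL36 passed with the offset for GC content and exon length. RPL37A passed when the replicate number was added to the model.

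A set of well-counted mRNAs had nearly the same level with both constructs. RPL6 had 553 and 554 CPM in d27 and 590 and 494 CPM in WT (log2 0.03 ± 0.25). RPL29, a heparin-binding surface protein, had 171 and 147 CPM in d27 and 191 and 121 CPM in WT (log2 0.03 ± 0.28). RPL14 had 169 and 139 CPM in d27 and 155 and 139 CPM in WT (log2 0.06 ± 0.24). In each of these the d27 values lay between or across the WT values. RPL15 (log2 0.23 ± 0.31), RPL9 (0.13 ± 0.25), RPL18 (-0.13 ± 0.26), RPL21 (-0.15 ± 0.24), RPL27A (-0.20 ± 0.26), RPL30 (-0.15 ± 0.30) and RPL35A (-0.40 ± 0.28) overlapped as well. With standard errors of 0.24 to 0.31, none of these is shown to be equal between constructs.

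The least abundant members per kilobase of coding sequence were RPL17, RPL36A, RPL26 and RPL22, at 7.18 to 34.4 CPM per kilobase, and the most abundant RPLP0, RPL13A, RPL19 and RPLP2, at 1312 to 3036. RPL17 had 53 and 64 counts in d27 and 31 and 34 counts in WT (log2 0.31 ± 0.58). Scaled, its groups overlapped, at 2.88 and 5.93 CPM in d27 and 3.52 and 3.52 CPM in WT. RPL36A had 53 and 26 counts in d27 and 30 and 82 counts in WT (log2 -1.17 ± 0.60), and did not pass (edgeR adjusted p = 0.232). Scaled, its groups were apart, at 2.88 and 2.41 CPM in d27 and 3.40 and 8.50 CPM in WT. Without WT replicate 1 its log2 fold change was -1.63. Each shares exons with an annotated read-through gene on its strand, RPL17-C18orf32 and RPL36A-HNRNPH2, and both read-through genes had no count in any library. How reads in shared exons were counted is not known, so the levels of both genes are uncertain. The same limit holds for RPL22 and RPL26, which also share exons with an annotated gene on their strand, as do 9 of the 45 in all. Exons of 19 of the 45, RPLP2 and RPL23A among them, overlap those of a gene on the other strand. What these overlaps add to the differences was not tested.

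The replicate numbers gave different sizes for the same comparison. Taking libraries of the same number, d27 was below WT in 42 of 45 genes for replicates 1, with a median log2 ratio of -0.84, and in 32 of 45 for replicates 2, with a median of -0.35. Of the 45, 30 were lower under both numbers, among them all 4 stalk genes. Over all 14909 genes tested, 7458 and 7227 were lower under numbers 1 and 2, with medians of -0.00023 and 0.046, and 5420 under both. RPLP0 differed more under number 2 (log2 -2.24, against -1.06 under number 1), as did RPL36A, while RPL41 (-1.71 and -0.46 under numbers 1 and 2) and RPL31 (-1.63 and -0.17) differed more under number 1. Within d27, replicate 1 was below replicate 2 in 37 of the 45, against 51.4% of all genes tested. Within WT, replicate 2 was below replicate 1 in 34 of the 45 (75.6%), against 50.7%. Replicates of the same construct thus also shifted these genes largely in 1 direction. The median gap between replicates on the log2 scale was 0.39 in d27 and 0.21 in WT for these genes, against 0.34 and 0.46 for all genes tested.

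**Figure D3:**
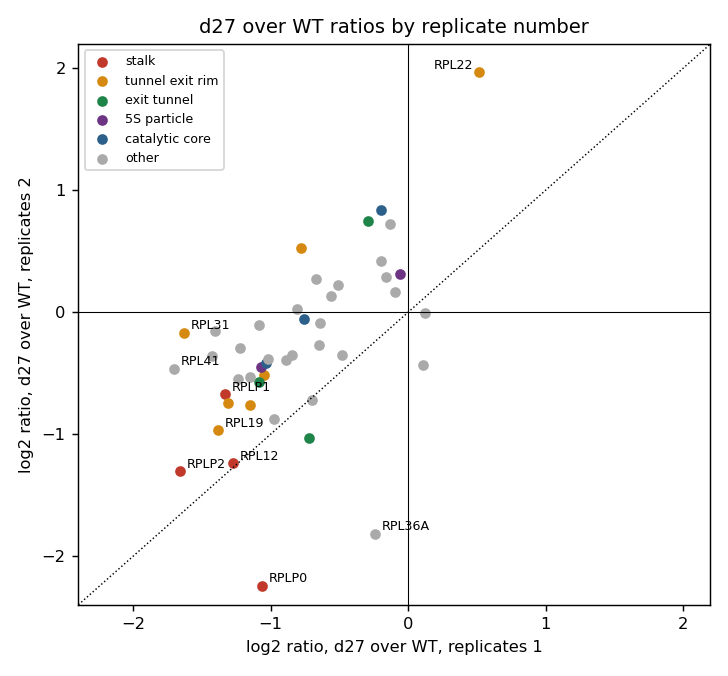
Log2 ratio of d27 over WT for each of the 45 genes, from the libraries numbered 1 (horizontal) and those numbered 2 (vertical), coloured by role in the subunit; the dotted line marks equal ratios. The stalk genes lie in the lower left, most other points lie above the dotted line, and RPL22 alone is in the upper right.

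Properties of the genes that the list did not use were only loosely tied to these differences. Across the 45 genes, which share the same 4 libraries, the log2 fold change had a Spearman correlation of 0.30 with coding length and 0.27 with the number of pseudogenes. The correlation was -0.20 with GC content of the longest annotated transcript. With mean CPM, itself taken from these 4 libraries, it was -0.36. Of the 23 genes with a coding length of at most 471 bases, 18 had both d27 libraries below both WT libraries, as did 12 of the 22 longer ones. The 18 genes that host small nucleolar RNAs in their span had a median log2 fold change of -0.65, and the other 27 also -0.65. Proteins found in all domains of life (18 genes) had a median of -0.58, and the other 27 a median of -0.76.

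Related genes give the context. Near-copies of large-subunit proteins split: RPL36AL, the autosomal twin of RPL36A, fell, with 37.4 and 31.5 CPM in d27 and 70.0 and 87.0 CPM in WT (log2 -1.19 ± 0.26 SE, edgeR adjusted p = 0.0299), while RPL7L1, a nucleolar relative of RPL7, rose to 293 and 237 CPM in d27, against 130 and 123 CPM in WT (log2 1.07 ± 0.24, edgeR adjusted p = 0.0323). The other 3 that were tested did not pass. Of the 33 small-subunit genes 1 fell, FAU (log2 -1.26), and 32 did not pass, with a median of -0.46; 12 had an unadjusted p under 0.05 and DESeq2 called 9, against 22 and 16 of the 45 large-subunit genes. Of 17 other mRNAs with TOP tracts, such as those of elongation factors, edgeR called none (6 had an unadjusted p under 0.05, and DESeq2 called 6), with a median of -0.27. Of 26 assembly factors of the large subunit, 5 rose, 1 fell and 20 did not pass, with a median of 0.18. MRTO4, a P0-like protein that holds the stalk's place during assembly, had 246 and 267 CPM in d27 and 80.0 and 68.4 CPM in WT, an increase of 1.79 ± 0.24 on the log2 scale (SE, edgeR adjusted p = 0.00898). NIP7 (log2 1.71) and SBDS (log2 1.21), of which SBDS acts late in assembly, also rose. Of 47 genes of the mitochondrial large subunit, 3 rose and 44 did not pass, with a median of 0.0087. Beside these counts, edgeR called 8% of all genes tested higher and 3.7% lower. These lists share the libraries, so their medians stand side by side without a test between them.

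**Figure D4:**
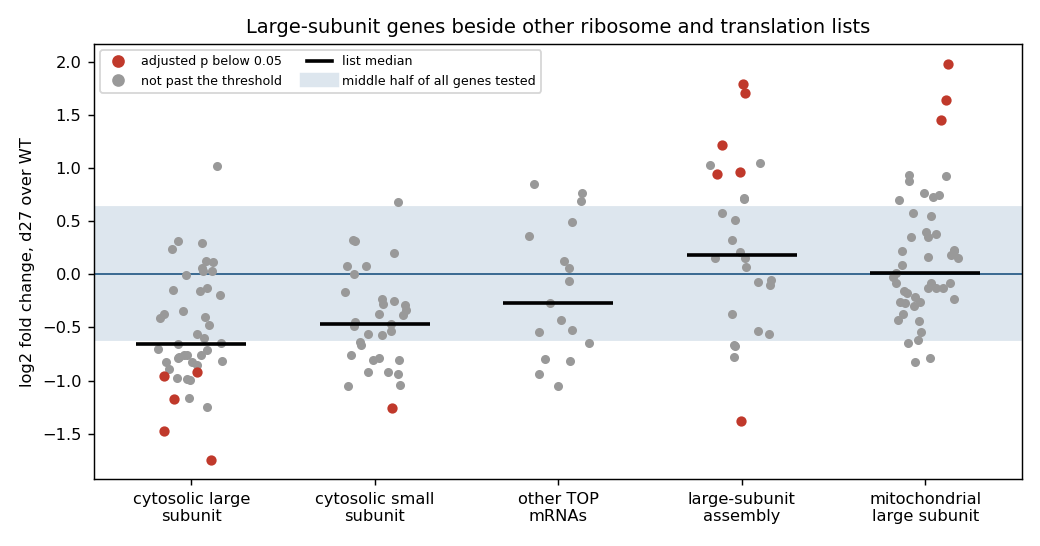
Log2 fold change, d27 over WT, of each tested gene in 5 lists, with black bars at the list medians, red points past an adjusted p of 0.05 and a band between the lower and upper quartiles of all genes tested. Medians run from -0.65 for the cytosolic large subunit to 0.18 for its assembly factors, and the red points are all below 0 in the 2 cytosolic subunits.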

How the data were processed

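The submitters' processing notes name GRCh38, HTSeq and DESeq2, with no versions. No source used here gives the aligner, annotation release or strand setting; per the labels the library kit was stranded. Each library has its own table of raw counts per gene, as deposited by the authors. HTSeq's 5 summary entries, 25.9% to 47.6% of all entries, were left out. Symbols came from a gene-name table (60419 of 60719 identifiers matched), and positions, lengths, GC content, pseudogenes and overlaps from GENCODE 29 (GRCh38).

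edgeR 4.0.16 (R 4.3.3) was run on all genes: TMM, filterByExpr (minimum count 10, total 15), glmQLFit (robust) and glmQLFTest on group alone, with Benjamini-Hochberg adjustment over 14909 genes and a threshold of 0.05. Standard errors are the log2 fold change over the square root of F. The script was tested on simulated data. Intervals cover counting error within a library only, not the spread between libraries, and reads had no molecular identifiers. Members and lists were chosen with earlier results of these data known; named genes are all called members, the extremes in p, fold and level, those with a fixed role, and up to 3 called genes of each other list. Remaining genes were named after their values were seen.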

Additional observations from a re-analysis of the deposited data

How the results depend on the processing

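Of 11 alternatives, none turned the median log2 fold change of the 45 genes above 0; leaving out each library in turn gave -0.74 to -0.44. The 5 calls among the 45 became 16 with DESeq2 1.42.0, 2 with library totals only, 9 with no filter on low counts, 10 with at least 50 counts in 2 libraries and 20 with an offset for GC content and exon length (996 of 14815 genes were then lower), all lower in d27, and 0 to 10 when 1 library was left out (0 without d27 replicate 1, 10 without WT replicate 1, of which RPL22 was higher). Calls over all genes, 1743, became 2841 with DESeq2, 2862 with no filter, and 768 (without d27 replicate 1) to 4851 (without WT replicate 1). With library totals only, RPL19, RPL13 and RPL23A were lost (edgeR adjusted p = 0.0519, 0.0685 and 0.0740). The labels say nothing of what the replicate numbers share, and deviations of same-numbered libraries had r = 0.134; with the replicate block, 16 of the 45 and 3575 of all genes passed. None of the 12 genes whose log2 fold change changed sign was called in that setting. When 1 library was left out, the ranges were -0.70 to 0.50 for RPL26, -0.071 to 0.21 for RPL6, -0.24 to 0.45 for RPL29, -0.0065 to 0.33 for RPL5, -0.091 to 0.36 for RPL9, -0.36 to 0.11 for RPL18, -0.11 to 0.77 for RPL15, -0.069 to 0.23 for RPL14, -0.43 to 0.039 for RPL27A, -0.57 to 0.22 for RPL30, -0.26 to 0.77 for RPL17 and -0.33 to 0.052 for RPL21. RPL26 also became 0.00012 with DESeq2, 0.040 with library totals and 0.048 with no filter. With at least 50 counts, RPL6 became -0.018 and RPL29 -0.019. With the offset, RPL6 became -0.24, RPL29 -0.11, RPL5 -0.30 and RPL9 -0.14. The cause was not tested. With 2 libraries per group, differences the size of most of these genes' could pass or miss on 1 library.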
